A study of Homo sapiens with 8 samples.

Results

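Genes for histone lysine methylation and heterochromatin were followed in SH-SY5Y cells across 4 doses of maleic acid. The members were 38 named genes, and a probe was taken when the platform annotation gave it 1 of these symbols and no other. All 38 genes were found, with 60 of the 31741 probes on the array. Of these, 30 probes stood for 18 writers (lysine methyltransferases), 21 for 14 erasers (lysine demethylases) and 9 for 6 heterochromatin proteins. SH-SY5Y is an established human neuroblastoma line, used as a stand-in for neurons. Cultures ran for 24 h without maleic acid (control) or with 10, 50 or 100 μM of it, and maleic acid is a small dicarboxylic acid. The RNA of each dose was hybridised to 2 arrays, which the labels call technical replicates. Separate cultures were not measured, so the spread below is that between arrays of 1 RNA sample, and every difference compares RNA samples and not conditions.

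Writers place methyl groups on lysines of histone tails, and erasers take them off. Methylation of lysine 9 of histone H3 (H3K9) is bound by the HP1 proteins CBX1, CBX3 and CBX5 and marks silent heterochromatin, and that of lysine 27 (H3K27) is the mark of Polycomb silencing. Methylated H3K4 marks promoters and enhancers, and methylated H3K36 and H3K79 mark transcribed genes. Most erasers are JmjC enzymes that need iron and 2-oxoglutarate, whereas KDM1A and KDM1B use a flavin. In neuroblastoma, EZH2 and KDM1A are studied as supports of the undifferentiated state.

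A log2 intensity below is the deposited spot intensity after log2 and quantile normalization, and a log2 fold is the mean of both arrays at a dose minus the mean of both control arrays. Its standard error (SE) and adjusted p come from limma over all 8 arrays and all probes. A fold with an adjusted p under 0.05 was counted as beyond array noise. The brightness of a probe depends on its sequence as well as on its transcript, so no gene's level is set against another's. The array medians of the deposited values lay between 336 and 524. The 8 probes of 7 noradrenergic neuroblastoma markers had mean log2 intensities of 11.27 (TH) to 18.04 (CHGA) in the control. The log2 of their summed intensity was 19.06 to 19.08 in control cells against 18.89 to 18.93 with 100 μM, and 1 of the probes, GATA3, was lower beyond array noise. For 12 proliferation genes on 16 probes it was 18.19 to 18.25 in the control, 17.86 to 17.94 at 10 μM, 17.86 to 17.98 at 50 μM and 17.97 to 18.00 at 100 μM, with 4 probes lower and 0 higher beyond array noise at 100 μM (0 higher also at an unadjusted p under 0.05 from limma). Of 15 probes of mesenchymal markers, 4 were higher and 1 was lower, with summed values of 14.92 to 15.68 in control cells against 15.44 to 15.67 with 100 μM. Of 7 probes of 5 blood cell markers, 2 were higher (CD14 and 1 probe of CD3D), with summed values of 12.27 to 12.40 against 13.09 to 13.49. This CD3D probe was the brightest of the 7, with 11.78 and 11.97 in the control against 13.14 and 12.70 with 100 μM. The other CD3D probe and both probes of the defining marker PTPRC were under a normalized intensity of 50. Of all probes, 10.4% were lower and 8.94% higher at 100 μM. The part of these genes in the folds of the members was not tested.

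Among the writers are 2 pairs of paralogues. At 100 μM SUV39H2 was lower beyond array noise and SUV39H1 did not pass the test. EZH1 was higher beyond array noise, though not with median scaling or no scaling, and EZH2 did not pass. The 250 bases before the first listed RefSeq start of each of these 4 genes (build GRCh38.p14) are shown. The sequence before each paralogue can thus be read beside its values, and a link between sequence and fold was not tested. Any other start of a gene was not examined, so a window need not be that of the transcript measured. Capitals mark the GC box GGGCGG and the CCAAT box CCAAT, searched on both strands. The windows are chr10:14878616-14878865 (plus strand) for SUV39H2, chrX:48695304-48695553 (plus strand) for SUV39H1, chr17:42745041-42745290 (minus strand) for EZH1 and chr7:148884292-148884541 (minus strand) for EZH2.

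SUV39H2: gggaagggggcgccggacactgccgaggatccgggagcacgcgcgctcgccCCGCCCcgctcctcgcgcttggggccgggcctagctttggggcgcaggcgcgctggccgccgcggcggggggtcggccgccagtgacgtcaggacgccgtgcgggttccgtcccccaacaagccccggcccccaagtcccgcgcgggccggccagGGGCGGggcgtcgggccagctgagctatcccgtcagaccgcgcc
SUV39H1: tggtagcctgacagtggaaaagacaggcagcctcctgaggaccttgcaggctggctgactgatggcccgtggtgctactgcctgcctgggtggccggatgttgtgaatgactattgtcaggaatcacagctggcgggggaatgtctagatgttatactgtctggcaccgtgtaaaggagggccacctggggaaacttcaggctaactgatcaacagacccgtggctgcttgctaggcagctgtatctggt
EZH1: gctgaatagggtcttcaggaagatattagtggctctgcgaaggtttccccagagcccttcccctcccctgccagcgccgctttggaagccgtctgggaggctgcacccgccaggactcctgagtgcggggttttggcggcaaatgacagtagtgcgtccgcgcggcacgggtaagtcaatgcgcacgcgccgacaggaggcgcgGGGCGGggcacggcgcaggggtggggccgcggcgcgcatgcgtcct
EZH2: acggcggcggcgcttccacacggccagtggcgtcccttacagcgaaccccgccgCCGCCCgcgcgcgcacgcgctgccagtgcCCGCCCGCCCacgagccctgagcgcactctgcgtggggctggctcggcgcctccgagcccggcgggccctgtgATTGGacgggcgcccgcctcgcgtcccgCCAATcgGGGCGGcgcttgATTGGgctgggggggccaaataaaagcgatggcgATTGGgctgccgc

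The SUV39H2 window held 38 CpG dinucleotides and 2 GC boxes, and the SUV39H1 window 5 CpG and 0 GC boxes. The EZH1 window held 26 CpG and 1 GC box, and that of EZH2 38 CpG, 4 GC boxes, of which a pair overlap, and 4 CCAAT boxes. The median over 27305 RefSeq promoters was 11 CpG, 42.3% of them held a GC box and 33% a CCAAT box. Promoters of 34 members were in the table, of which 23 held a GC box and 10 a CCAAT box. The E2F forms TTTCCCGC and TTTGGCGC were in 1.96% of all promoters and in 1 of the 34, and in none of the windows shown. Such matches describe letters in the window and are not sites.

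SUV39H2, which trimethylates H3K9, had log2 intensities of 7.83 and 8.02 without maleic acid, 7.11 and 7.11 with 10 μM, 7.15 and 7.07 with 50 μM and 6.63 and 6.88 with 100 μM. All 6 treated arrays lay below both control arrays. Its log2 fold at 100 μM was −1.17 (SE 0.123, adjusted p = 0.00389), or 0.444 times the control, after −0.81 at both lower doses (adjusted p = 0.029 and 0.0378). About 69.5% of the log2 fold was thus present at 10 μM. The deposited intensities were 222 and 267 in control cells against 83 and 132 with 100 μM. At 100 μM, SUV39H2 was the member whose call held in all 17 alternative settings in which it was fitted, with log2 folds between −1.32 and −0.89. Its calls at the lower doses did not hold as widely. They passed in 9 of 17 settings at 10 μM and 8 of 17 at 50 μM, and among the 8 fits without 1 array only in the 2 without an array at 100 μM. SUV39H1, which places the same mark, had 9.43 and 9.57 without maleic acid, 9.34 and 9.67 with 10 μM, 9.55 and 9.36 with 50 μM and 9.61 and 9.38 with 100 μM. Its arrays overlapped between all doses, and its fold at 100 μM was −0.01 (SE 0.156). The difference between the folds of SUV39H1 and SUV39H2 was not tested.

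Over all members at 100 μM, 10 of 60 probes were lower and 1 was higher beyond array noise, and 49 did not pass. Of all 31741 probes, 10.4% were lower and 8.94% were higher. The lower probes belonged to SUV39H2, SETD7, SETDB2, NSD1, EHMT1, KDM1B, KDM6A, KDM2A, CBX1 and ATRX, with log2 folds from −1.17 to −0.36. The higher probe was that of EZH1. Without regard to the fit, both arrays at 100 μM lay below both control arrays for 27 member probes and above them for 12, against 33.9% and 28.4% of all probes. The median log2 fold was −0.09 over the members and −0.03 over all probes. Counts of lower members were smaller in fits without 1 array: the count was 1 when the first control array was left out, 3 when the second was, 3 without either array at 50 μM, and 2 and 4 without the first and second at 100 μM. The share of all probes that were lower was also smaller in these fits, between 1.97% (without the first control array) and 7.47% (without the second at 100 μM). Over the 8 fits that each left out 1 array, folds ran from −0.40 to −0.33 for KDM2A, from −0.46 to −0.35 for KDM6A and from −0.63 to −0.50 for ATRX, and from −1.17 to −0.44 for CBX1. A dropped array at 10 or 50 μM does not enter the contrast of 100 μM with the control, though it enters the normalization and the estimate of the spread. Of the 11 probes past the threshold, SUV39H2 passed in all 8 fits without 1 array, SETD7 in 7 (not without the first control array) and SETDB2 in 5 (not without either control array or the first at 100 μM). NSD1, KDM1B, KDM6A and ATRX passed only without either array at 10 μM, EZH1 and CBX1 only without the second at 100 μM, and EHMT1 and KDM2A in none of the 8. With median scaling, EHMT1, SETDB2, EZH1, SETD7, NSD1 and CBX1 did not pass.

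At the lower doses few members passed. At 10 μM, SUV39H2 and a probe of PRDM2 were lower, 2 of 60 against 1.57% of all probes, and 0 were higher against 1.72% (limma, 2 higher at an unadjusted p under 0.05). At 50 μM, SUV39H2 alone was lower, 1 of 60 against 1.17%, and 0 were higher against 1.13% (1 at an unadjusted p under 0.05). The comparisons with 10, 50 and 100 μM share the control arrays. The 4 dose means followed the order of dose downwards for 7 member probes and upwards for 2, against 9.27% and 9.0% of all probes. A limma trend over the rank of dose, with the 4 averaged RNA samples as units, passed an adjusted p of 0.05 for 0 members and 0% of all probes, and an unadjusted p of 0.05 for 10 members (16.7%) and 17.4% of all probes. In the unscaled values 1 member passed the trend, but the share of all probes that did so was not computed.

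**Figure D1:**
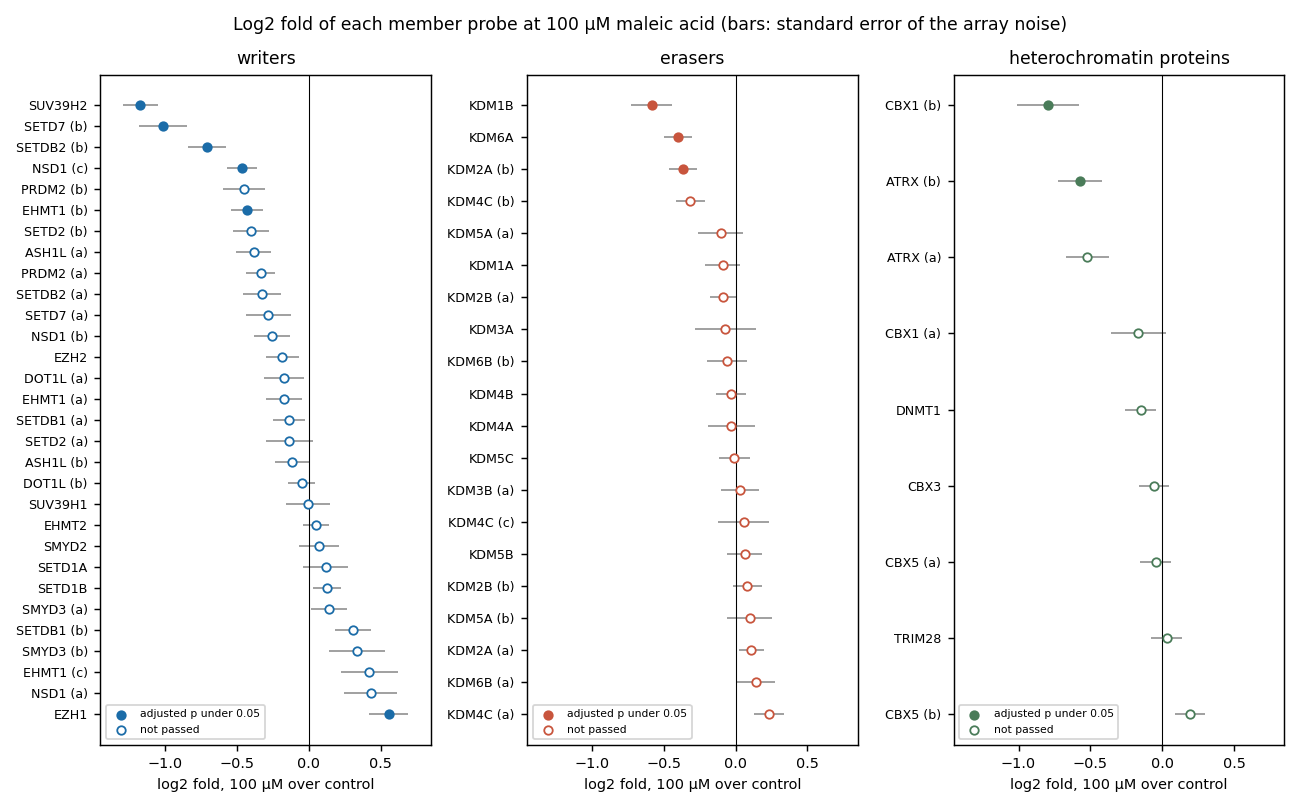
Log2 fold at 100 μM maleic acid over the control (x axis) of 59 member probes in 3 panels for writers, erasers and heterochromatin proteins, with standard errors as bars and letters for the probes of 1 gene from brightest (a) to dimmest (c). Filled points had an adjusted p under 0.05: 6 writer probes from −1.17 (SUV39H2) to 0.55 (EZH1), 3 eraser probes and 2 heterochromatin probes, and the dim KDM3B probe is not drawn.

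Counts by role and by mark are to be read against the 10.4% of all probes that were lower and the 8.94% that were higher at 100 μM. Of the writer probes, 5 of 30 (16.7%) were lower and 1 was higher. Of the eraser probes, 3 of 21 (14.3%) were lower and 0 were higher (limma, 0 also at an unadjusted p under 0.05). The median log2 fold at 100 μM was −0.15 for writers and −0.03 for erasers, a difference of −0.12, and −0.15 for the heterochromatin proteins. The difference between writers and erasers was −0.04 without the second array at 100 μM, −0.08 without the second control array and −0.19 without the first. With median scaling or no scaling it was −0.06. The median log2 intensity of a role on each array had a pooled SD within doses of 0.0363 for writers, 0.0196 for erasers and 0.0834 for heterochromatin proteins. That SD is of a level and does not give the spread of a median fold or of the difference. With the brightest probe of each gene alone, the median log2 folds were −0.14 for writers and −0.03 for erasers. With probes averaged per gene they were −0.08 and −0.03, a difference of −0.05. The middle 50% of folds ran from −0.37 to 0.11 in writers and from −0.10 to 0.06 in erasers. No test was run on the difference, since genes are not replicates of a condition.

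Among the writers of H3K9, 3 of 12 probes were lower and 0 higher beyond array noise (limma, 1 higher at an unadjusted p under 0.05), with a median of −0.25. SETDB2, a relative of SETDB1, had 7.43 and 7.53 without maleic acid, 7.01 and 7.28 with 10 μM, 7.38 and 7.16 with 50 μM and 6.80 and 6.75 with 100 μM on its dimmer probe. These values at 100 μM were the lowest of the 8, and the fold was −0.71 (SE 0.132, adjusted p = 0.0165). Its brighter probe had −0.33 (SE 0.132, adjusted p = 0.132), in the same direction. EHMT1, which pairs with EHMT2 (G9a) to place mono- and dimethyl H3K9, gave discordant probes. The probe of middle brightness had 7.97 and 7.92 without maleic acid, 7.84 and 7.96 with 10 μM, 8.12 and 7.98 with 50 μM and 7.61 and 7.42 with 100 μM, a log2 fold of −0.43 (SE 0.113, adjusted p = 0.0425). The arrays at 100 μM lay below all others. The dimmest EHMT1 probe had 0.42 (SE 0.198) and the brightest −0.17 (SE 0.126), neither of which passed. EHMT2 had 0.05 (SE 0.0894). SETDB1, which is recruited by TRIM28, had −0.14 and 0.31 on its probes, neither past the threshold.

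PRDM2, a PR-domain protein assigned to H3K9, was lower at the lowest dose. Its brighter probe had 9.01 and 8.98 without maleic acid, 8.42 and 8.31 with 10 μM, 8.57 and 8.58 with 50 μM and 8.57 and 8.75 with 100 μM. The log2 fold was −0.63 at 10 μM (SE 0.103, adjusted p = 0.0341) and −0.34 at 100 μM (adjusted p = 0.0667). All treated arrays were below the control arrays, and the lowest were those at 10 μM. The call at 10 μM was lost in 6 of the 8 fits without 1 array, those without either array of the control, 10 μM or 50 μM, with folds between −1.03 and −0.56 over all alternatives. The dimmer probe had 0.12 at 10 μM and −0.45 at 100 μM and passed at neither dose.

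EZH1 and EZH2 are the alternative catalytic subunits of Polycomb repressive complex 2. The EZH1 probe had log2 intensities of 10.81 and 10.52 without maleic acid, 10.87 and 10.77 with 10 μM, 10.79 and 10.90 with 50 μM and 11.32 and 11.12 with 100 μM. The arrays at 100 μM were above all others, while those at 10 and 50 μM overlapped the control. The log2 fold was 0.55 (SE 0.136, adjusted p = 0.0352), and it was −0.05 with no scaling, where all probes had a median of −0.34. EZH1 passed in 8 of 17 alternative settings. The deposited EZH1 intensities of 2330 and 1828 in control cells against 2025 and 1963 with 100 μM overlapped. EZH2 had 13.13 and 13.15 without maleic acid, 12.85 and 13.10 with 10 μM, 13.12 and 13.22 with 50 μM and 12.96 and 12.95 with 100 μM, a fold of −0.18 (SE 0.113, adjusted p = 0.298).

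Of 6 probes of H3K4 writers, 1 was lower and 0 were higher (limma, 0 also at an unadjusted p under 0.05). SETD7, which adds a single methyl group to H3K4, had 7.26 and 6.95 without maleic acid, 6.62 and 6.52 with 10 μM, 6.32 and 6.38 with 50 μM and 5.89 and 6.29 with 100 μM on its dimmer probe. After quantile normalization all treated arrays were below both controls. The log2 fold of −1.01 (SE 0.166, adjusted p = 0.012) was 0.495 times the control. With no scaling it was −0.92 and did not pass (limma, adjusted p = 0.101). The deposited intensities were 135 and 111 in control cells, 114 and 74 with 10 μM, 112 and 110 with 50 μM and 45 and 93 with 100 μM. On that scale the arrays at 10 and 50 μM overlapped the control. Its brighter probe had 12.17 and 11.82 without maleic acid, 11.25 and 11.24 with 10 μM, 11.24 and 11.43 with 50 μM and 11.60 and 11.83 with 100 μM. On that probe the folds were −0.75 (adjusted p = 0.0556), −0.66 (adjusted p = 0.0656) and −0.28 (adjusted p = 0.246) in the order of dose, so that the arrays at 100 μM overlapped the control and those at the lower doses did not. SETD1A and SETD1B, catalytic subunits of the SET1 complexes that trimethylate H3K4, had 0.12 and 0.13, and the SMYD3 probes had 0.14 and 0.34. None of these passed.

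Of 10 probes of H3K36 and H3K79 writers, 1 was lower and 0 were higher (limma, 0 also at an unadjusted p under 0.05). The dimmest of 3 probes of NSD1, which dimethylates H3K36, had 6.76 and 6.91 without maleic acid, 6.62 and 6.76 with 10 μM, 6.41 and 6.51 with 50 μM and 6.37 and 6.38 with 100 μM. Its log2 fold of −0.47 (SE 0.106, adjusted p = 0.0281) became 0.07 with median scaling, and its deposited intensities of 86 and 105 in control cells against 67 and 96 with 100 μM overlapped. The other NSD1 probes had 0.43 and −0.26 and did not pass. SETD2, which trimethylates H3K36, had −0.40 (adjusted p = 0.0702) and −0.14. ASH1L, a dimethylating H3K36 enzyme, had −0.38 (adjusted p = 0.0704) on its brighter probe, with all treated arrays below the control, and −0.12 on the other. DOT1L, the H3K79 methyltransferase, had −0.17 and −0.05, and SMYD2, which also methylates other proteins, had 0.07.

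**Figure D2:**
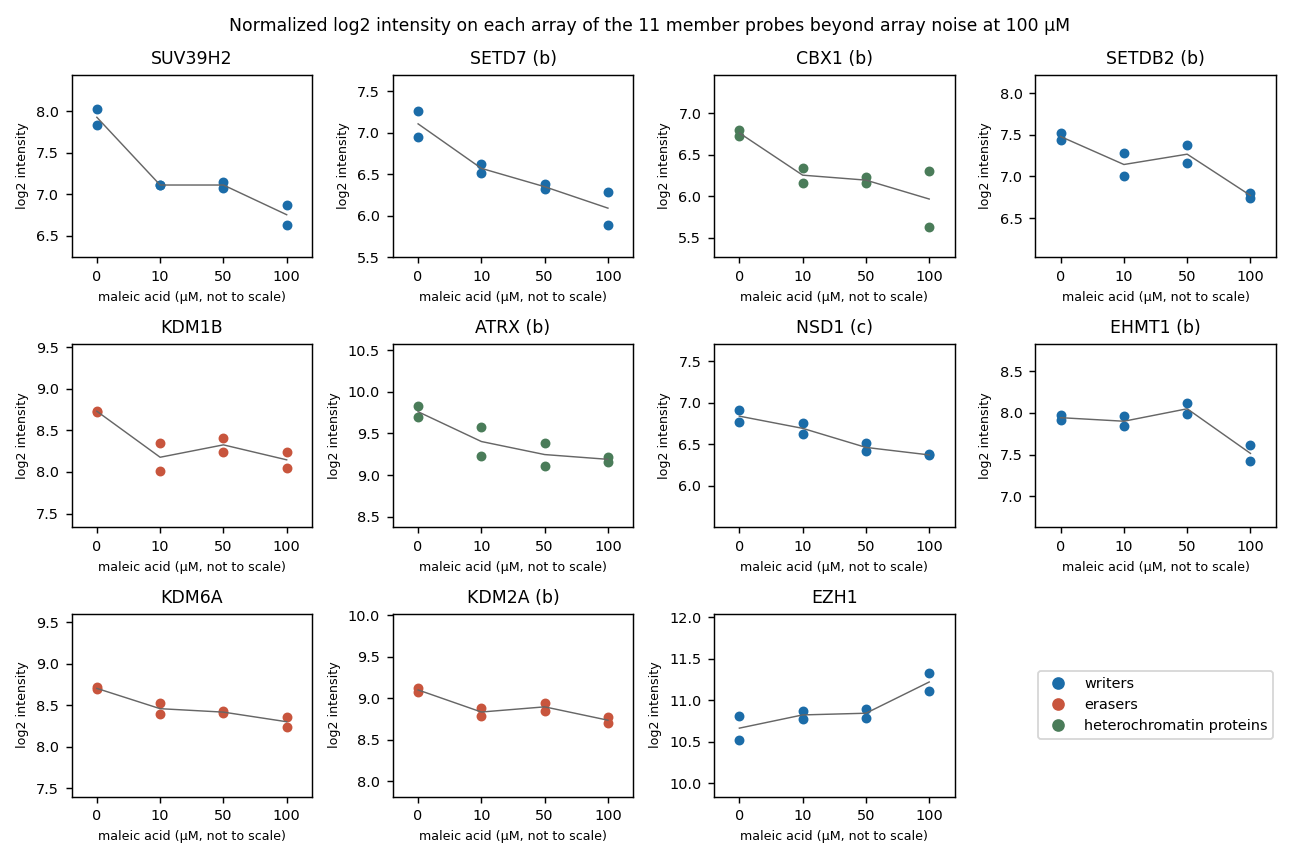
Normalized log2 intensity (y axis, each panel spanning the same range) on both arrays of each dose of maleic acid (x axis, μM, evenly spaced) for the 11 member probes beyond array noise at 100 μM, with lines through the dose means. SUV39H2 dropped from 7.83 and 8.02 in the control to 7.11 on both arrays at 10 μM, and EZH1 is the single panel that ends above its control.

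KDM1B, a flavin-dependent eraser of H3K4 methylation, was the eraser with the lowest fold past the threshold. It had 8.72 and 8.74 without maleic acid, 8.01 and 8.34 with 10 μM, 8.41 and 8.24 with 50 μM and 8.05 and 8.24 with 100 μM. All treated arrays lay below the control, the fold at 100 μM was −0.58 (SE 0.143, adjusted p = 0.035), and 94.7% of it was present at 10 μM, where it did not pass (adjusted p = 0.0834). Its relative KDM1A (LSD1) had −0.09 (SE 0.123). KDM5A, KDM5B and KDM5C, JmjC erasers of trimethyl H3K4, had folds between −0.10 and 0.10 on 4 probes.

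KDM6A, which removes H3K27 methylation, had 8.69 and 8.71 without maleic acid, 8.39 and 8.52 with 10 μM, 8.43 and 8.41 with 50 μM and 8.36 and 8.24 with 100 μM. Its dose means fell at every step, and the fold was −0.40 (SE 0.0989, adjusted p = 0.0356). KDM6B (JMJD3), which acts on the same mark, had 0.14 and −0.06 on its probes and did not pass.

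KDM2A, an eraser of H3K36 methylation that binds CpG islands, had 9.08 and 9.12 without maleic acid, 8.88 and 8.79 with 10 μM, 8.85 and 8.95 with 50 μM and 8.70 and 8.77 with 100 μM on its dimmer probe. All treated arrays lay below the control arrays, with −0.36 (SE 0.0962, adjusted p = 0.043) at 100 μM. Its brighter probe had 13.66 and 13.69 in control cells against 13.79 and 13.79 with 100 μM, a fold of 0.11 (SE 0.0899). The probes of KDM2B, its paralogue, had −0.09 and 0.08.

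Of the 8 probes of erasers that act on H3K9, 0 were lower or higher at 100 μM (limma, 1 lower and 0 higher at an unadjusted p under 0.05). KDM3A, which removes mono- and dimethyl H3K9, had arrays that overlapped the control at 100 μM, with a fold of −0.07 (SE 0.211). The bright KDM3B probe had 0.03 (SE 0.13). Its dim probe had a deposited intensity of 6698 on the first control array, 13 on the second and −4 to 42 on the others. It did not pass (adjusted p = 0.187), and no fold is given. KDM4A, KDM4B and KDM4C, which act on trimethyl H3K9 and H3K36, had folds from −0.31 to 0.23 on 5 probes.

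Of the heterochromatin proteins, 2 of 9 probes were lower and 0 were higher (limma, 0 also at an unadjusted p under 0.05). CBX1 (HP1 beta) had 6.80 and 6.72 without maleic acid, 6.17 and 6.34 with 10 μM, 6.23 and 6.16 with 50 μM and 5.63 and 6.31 with 100 μM on its dimmer probe. All treated arrays were lower after quantile normalization. Its log2 fold was −0.79 (SE 0.214, adjusted p = 0.0456), −1.17 without the second and −0.44 without the first array at 100 μM. With median scaling it was −0.36 (limma, adjusted p = 0.48). The deposited intensities of this probe were 91 and 92 in the control, and 92 and 65 with 10 μM. They were 105 and 93 with 50 μM and 35 and 94 with 100 μM. On that scale the arrays at 50 μM lay above both controls. The brighter CBX1 probe had 14.53 and 14.93 without maleic acid, 14.14 and 14.26 with 10 μM, 14.76 and 14.39 with 50 μM and 14.42 and 14.70 with 100 μM, overlapping arrays with a fold of −0.17 (SE 0.192). CBX3 (HP1 gamma) had 14.94 and 14.81 without maleic acid, 14.89 and 14.74 with 10 μM, 14.77 and 14.68 with 50 μM and 14.85 and 14.79 with 100 μM. CBX5 (HP1 alpha) had 15.14 and 15.02, 14.83 and 14.79, 14.79 and 14.96, and 15.06 and 15.01 over the same doses on its brighter probe. Folds at 100 μM were −0.05 for each of these and 0.20 (SE 0.105) for the dimmer CBX5 probe, and none passed.

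ATRX, a remodeller that deposits histone H3.3 at heterochromatin and whose loss is frequent in a class of neuroblastoma, had 1 of its probes past the threshold. The dimmer had 9.69 and 9.83 without maleic acid, 9.22 and 9.58 with 10 μM, 9.38 and 9.11 with 50 μM and 9.16 and 9.22 with 100 μM, a log2 fold of −0.57 (SE 0.156, adjusted p = 0.0468). The brighter had 9.65 and 9.99, 9.77 and 9.70, 9.82 and 9.66, and 9.41 and 9.18, a fold of −0.52 (SE 0.151, adjusted p = 0.0563) that did not pass. On both probes the arrays at 100 μM lay below the control arrays. TRIM28, the corepressor of zinc finger proteins, had 0.03 (SE 0.107), and DNMT1, the maintenance DNA methyltransferase, −0.15 (SE 0.107, adjusted p = 0.372).

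Brightness moved with these calls. Of the 15 member probes dimmer than the median probe, 8 were lower and 0 were higher (limma, 0 also at an unadjusted p under 0.05), against 12.2% and 9.84% of all dim probes. Of the 45 brighter ones, 2 were lower and 1 was higher, against 8.70% and 8.03%. The median log2 fold was −0.45 for the dim and −0.05 for the bright members, and −0.03 for all probes of either group. With cyclic loess 8 dim and 1 bright members were lower, against 12.4% of all dim and 8.46% of all bright probes. With median scaling 3 dim and 8 bright members were lower, against 4.36% and 25.8%. Median scaling also moved the median of all dim probes to 0.54 and that of all bright ones to −0.29. The dim members included 9 writer, 5 eraser and 1 heterochromatin probes. Among the bright members, the medians of writers and erasers were −0.05 and −0.02. The part of brightness in the calls was not tested.

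**Figure D3:**
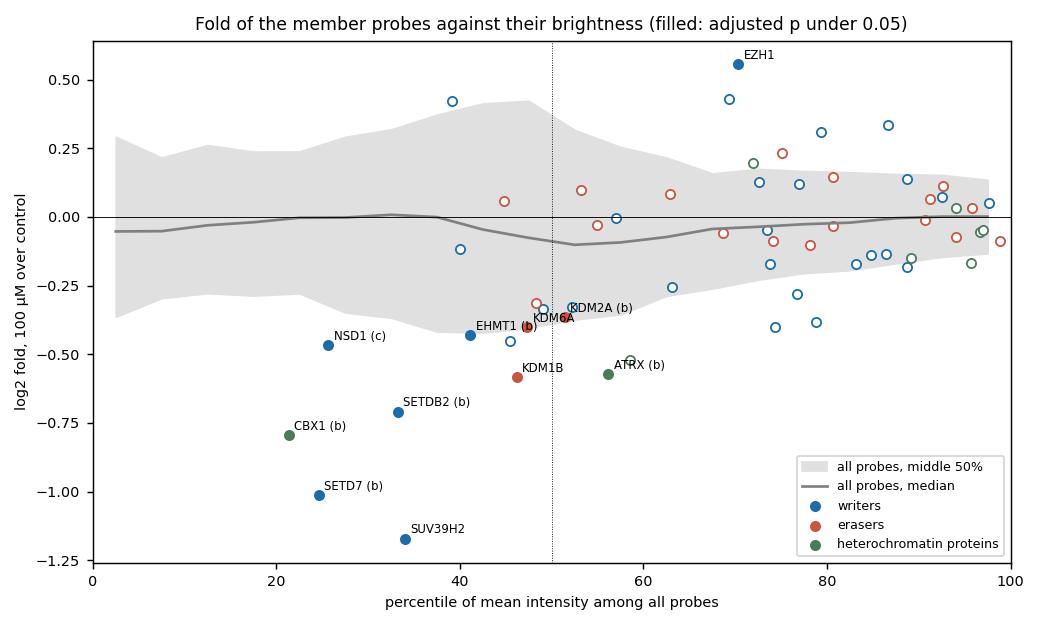
Log2 fold at 100 μM over the control (y axis) against the percentile of the mean intensity among all probes (x axis) for 59 member probes, with the median and middle 50% of all probes in 20 bins as the grey line and band, and filled points for an adjusted p under 0.05. Of the 10 lower members 8 sit left of the dotted line at the median probe, and the brightest of them is ATRX at percentile 56.2.

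Of the members, 19 genes had several probes. The brightest and the dimmest probe had folds of opposite sign for 9 of them, against 36.3% of 5450 genes with several probes. In 6 of the 19 the dimmest probe was lower beyond array noise and the brightest was not, against 15.7% of the 5450. The fold of the dimmest probe was below that of the brightest in 11 of the 19 (57.9%), against 65% of the 5450. The median of the fold of the dimmest minus that of the brightest was −0.12 for members and −0.15 for all these genes. The widest gaps after KDM3B were those of NSD1, with 0.43 and −0.47, SETD7, with −0.28 and −1.01, and CBX1, with −0.17 and −0.79. Different probes can report different transcripts of a gene, and the platform annotation used here does not place them. On the brightest probe of each of the 38 genes, 3 were lower (SUV39H2, KDM1B and KDM6A, each with 1 probe) and EZH1 was higher. These were 7.89% lower and 2.63% higher, against 10.4% and 8.94% of all probes.

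**Figure D4:**
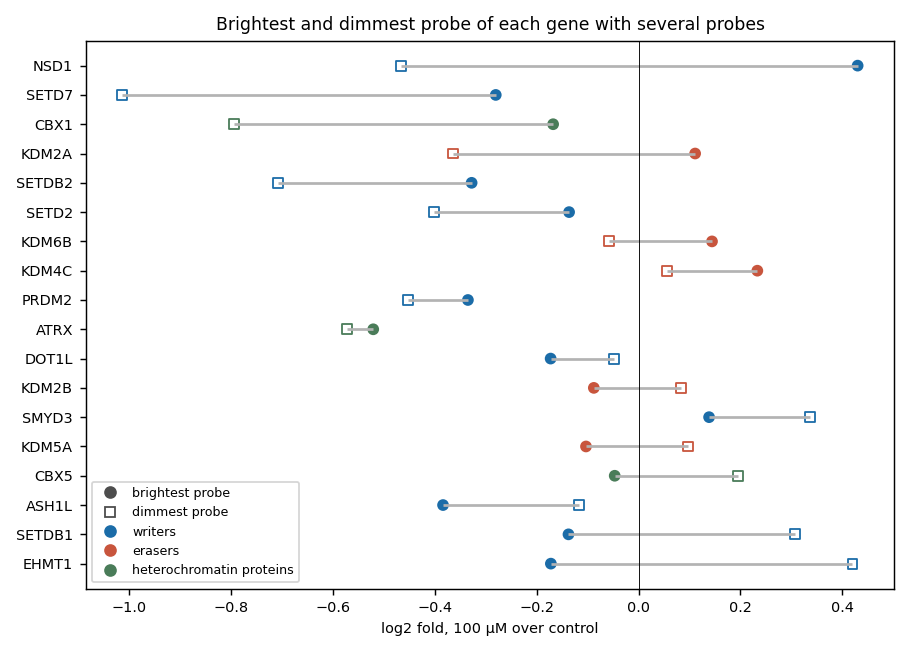
Log2 fold at 100 μM over the control (x axis) of the brightest (filled circle) and the dimmest probe (open square) of 18 member genes with several probes, KDM3B left out. NSD1 has the widest gap, from 0.43 to −0.47, and ATRX, at −0.52 and −0.57, the closest pair on the lower side.

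Other chromatin genes were taken from a list of partners of the members and of further lysine methyltransferases and demethylases. Of 85 probes of 55 genes, 14 were lower and 2 were higher beyond array noise at 100 μM, with a median of −0.14. Of 15 probes of COMPASS and MLL genes, which serve H3K4 methylation, 4 were lower, with −1.03 (SE 0.107) for KMT2A and −0.74 (SE 0.128) for KMT2C. Of 21 probes of further lysine methyltransferases, 4 were lower and 1 was higher, with −0.80 (SE 0.141) for SETMAR and −0.79 (SE 0.112) for NSD3, a relative of NSD1. Of 26 probes of heterochromatin partners, 4 were lower and 1 was higher, among them the de novo DNA methyltransferase DNMT3A with −0.92 (SE 0.191) and SMCHD1, which keeps the inactive X chromosome silent, with −0.69 (SE 0.142). JMJD1C, a relative of KDM3A, had −0.71 (SE 0.116) and was the 1 of 11 probes of further demethylases that passed. AEBP2, an accessory subunit of Polycomb repressive complex 2, had −0.39 (SE 0.0934), 1 of 12 Polycomb partner probes. The background for these counts is again 10.4% lower and 8.94% higher. Each fold named here is that of 1 probe, and any other probes of the same gene are not given. The 2 probes that were higher are not among those named.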

How the data were processed

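Total RNA of SH-SY5Y cells at 4 doses was hybridised with 1 dye (Cy5) to 2 Human Whole Genome OneArray v6 slides per dose. The authors read the spots with GenePix and processed them with Rosetta Resolver, removing spots flagged negative. Their methods name scaling to the median, yet medians differ between the deposited arrays, whose values are intensities on a linear scale. After a floor of 1 and log2, arrays were quantile normalized (limma 3.58.1, R 4.3.3). limma was fitted to all 31741 probes with dose as the group, two-sided, with Benjamini-Hochberg adjustment over all probes. A second fit took the 4 dose means against the rank of dose. Background is not in the table used, so 50 on the normalized scale stood in for it. Of the probes, 24658 had 1 symbol, 1002 several and 6081 none in the annotation used. Promoter windows came from RefSeq (GRCh38.p14), with the first start listed for each gene. Figures used Python 3.11.15 and matplotlib 3.10.9. Both fits were run on simulated data with independent array noise. Only the fit to all arrays had a criterion to pass, so that run does not show what the trend could detect. Both arrays of a dose are technical replicates, so the adjusted p values of the fit to all arrays describe array noise and not the spread between cultures. Members, lists and the normalization were chosen with earlier results of these data known. Values of every array are given for members past the threshold at 100 μM and for the SUV39H, EZH and HP1 families. PRDM2, the brighter SETD7, KDM2A and ATRX probes were added after their values were seen, and up to 2 genes of each class of other chromatin genes are named. The alternatives were scaling by cyclic loess, by the median or not at all, dim probes removed, a floor of 32, an offset of 50, probes averaged per gene, an intensity trend of the prior variance, the replicate number as a block and leaving out each array.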

Additional observations from a re-analysis of the deposited data

How the results depend on the processing

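The count of members lower at 100 μM was 10, and lay between 1 and 7 in fits without 1 array, 4 with the replicate block and 42 with no scaling (35.8% of all probes). That of members higher was 1, between 0 and 2 without 1 array and 0 with no scaling. At 10 μM, 2 were lower, 0 to 2 without 1 array, 5 with median scaling, 39 with no scaling (36.1% of all probes), 5 with an offset of 50, 4 with an intensity trend of the prior variance, 1 with probes averaged per gene and 0 with the replicate block. At 50 μM, 1 was lower, 0 to 2 without 1 array, 12 with median scaling (12.6% of all probes), 0 with no scaling, 4 with dim probes left out, the floor, the offset or the intensity trend, and 0 with the replicate block. None was higher at 10 or 50 μM in any of these fits, and the trend passed 0 members, or 1 with no scaling, where the share of all probes was not computed. With the replicate block, 6.67% of members and 7.51% of all probes were lower at 100 μM. With no scaling, 5.2% of all probes were higher at that dose. At 10 μM, the share of all probes that were lower was 7.84% with median scaling, 3.89% with the offset and 3.15% with the intensity trend. It was 0.293% with the replicate block, and 2.11% of all genes with probes averaged per gene. At 50 μM the share of all probes was 4.79% with dim probes left out, 4.17% with the floor, 5.02% with the offset and 4.32% with the intensity trend. It was 0.0315% with no scaling and 0.0473% with the replicate block. At both lower doses this share was also smaller in the fits without an array of the control, 10 μM or 50 μM.

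The medians at 100 μM of writers, erasers and heterochromatin proteins (−0.15, −0.03 and −0.15) were −0.32, −0.26 and −0.36 with median scaling and −0.64, −0.58 and −0.67 with no scaling, in which the median of all probes was −0.34. The writers had −0.079 with probes averaged per gene. Without 1 array, the medians lay between −0.18 and −0.12, between −0.075 and 0.020 and between −0.19 and −0.058. NSD1 (dimmest probe) turned to 0.074 with median scaling and EZH1 to −0.050 with no scaling. Of 187 pairs of a called probe and an alternative, 112 kept the call, 73 lost it and 2 turned. The cause was not tested. The fit without the dim KDM3B probe, added after the data were seen, gave the same counts.

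The replicate numbers did not pair the arrays. Deviations of same-numbered arrays correlated across probes at −0.080 to 0.11 over 6 pairs of doses, 4 of them above 0. The alternatives left a lone array at a dose that was assumed to vary like the others. Arrays cannot show the spread between cultures.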
